A study of Triticum aestivum with 18 samples.

Results

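The 114 probe sets described here were those whose signal in wheat roots was lowest where phosphate fertiliser had been withdrawn, and only there. They were found among the 61179 probe sets of the array that were not manufacturer's controls. A probe set was a member if the highest of the 3 phosphate-withdrawn arrays lay below the lowest of the other 15, if its mean log2 intensity was at least 1.0 lower than the mean of those 15, and if the linear mean of the 15 was 200 or more. The members were thus chosen on the contrast of phosphate lack with everything else, and every value of that contrast is given below as a description, with no test.

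The roots were those of Hereward, a winter wheat, sampled in 2011 at the booting stage on Broadbalk, a field trial of fertilisers. Each of 18 root samples had its own Affymetrix array. There were 3 samples in each of 6 groups: a nutrient-replete control plot, plots with no potassium (no K), no magnesium (no Mg), no phosphate (no P) or no sulfate (no S) fertiliser, and plots with low nitrogen (low N). Per the labels, N, P, K and Mg were withheld from 1843 and S from 2000, and the series text gives 12 samples where 18 are listed. The sources do not say how many plots a treatment had. If a group came from 1 plot, plot and treatment cannot be told apart, and the p-values below measure only the spread within it.

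Phosphate is a building block of nucleic acids, of membrane phospholipids and of ATP. Plants short of it are known to raise phosphate transporters and secreted phosphatases, to replace part of their phospholipids with galactolipids and sulfolipids, and to change root growth. In Arabidopsis and rice much of this is set by PHR transcription factors, which are held back by SPX proteins when phosphate is plentiful.

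The names of most members are not known here. The platform's annotation gave 1 gene for 5 of the 114 members and none for 109, and only 1 of the 5 carried a name beyond a running number, the histone gene H2A-9. The others are given by their array identifiers, with no gene name or role. In these identifiers the number after Ta or TaAffx marks the sequence cluster a probe set was designed from, and the endings _x_at, _s_at and _a_at mark probe sets that can hybridise with several related transcripts. Of the members 64 ended in plain _at, 27 in _x_at, 12 in _s_at and 11 in _a_at. In hexaploid wheat such related transcripts include the copies on the other genomes, so a member may stand for several genes.

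The arrays had been scaled to 1 common trimmed mean, and array medians ran from 69.2 to 70.0 in no P and from 53.4 to 72.6 in the other groups. RNA integrity was read from control probes at both ends of ubiquitin. Signal at the 5' end over that at the 3' end was 1.09 to 1.12 in no P and 1.15 to 1.32 on the other 15 arrays, so no P stood apart in it. The like ratio for G6PDH was 0.0436 to 0.0527 in no P and 0.0371 to 0.0710 elsewhere. For sucrose synthase, middle over 3' end, it was 0.0715 to 0.0872 and 0.0569 to 0.116, and both of these overlapped. The part of RNA integrity in the members' levels was not tested. These are bulk roots, so fewer cells of a type and less RNA per cell cannot be told apart. The root genes that could be named were DMAS1, of phytosiderophore synthesis, ALMT1, the malate channel of root tips, and the peroxidase gene PER1. Their mean intensities outside no P were 1125, 86.7 and 153, and their summed intensity, mostly DMAS1, was 1243 to 1340 in no P and 1214 to 1539 elsewhere. All 3 were lower on average in no P (-0.03, -0.30 and -0.10 log2), and none was separated from the other 15 arrays. The summed intensity of the 4 photosynthesis genes rbcl, PsbO, PsbP and petC was 16947 to 23708 in no P and 18754 to 27513 elsewhere, and these overlapped. This sum was mostly rbcl, at a mean of 22086.5 outside no P, against 409, 398 and 229 for PsbO, PsbP and petC. In no P rbcl and PsbP were lower on average (-0.13 and -0.07 log2), while PsbO and petC were higher (0.07 and 0.26).

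Across the 114 members the mean of no P differed from the mean of the other 15 arrays by -4.09 to -1.004 log2, with a median of -1.28, which is 2.43-fold lower. Over the 34255 probe sets that passed the filter on dim signals the same difference had a median of 0.03. Of the members 48 were lower by 1 to 1.25 log2, 38 by 1.25 to 1.5, 20 by 1.5 to 2 and 8 by 2 or more. The mean of the other 15 ran from 202 to 6845, with 40 members under 500 and 25 at 2000 or more, where the rule set the lower limit of 200. All 114 passed the filter, and 103 of them stood at or above their array's median on all 18 arrays, no P included. For 3 members, Ta.5549.1.S1_a_at, Ta.20922.2.S1_x_at and Ta.16683.1.A1_at, all no P arrays lay below their array's median, and for 8 others 1 or 2 of them did. There the signal cannot be told from background without detection calls, and the fold is uncertain. The distance between the highest no P array and the lowest of the other 15 was small for most members, with a median of 1.203-fold and a range of 1.003-fold to 3.93-fold.

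**Figure D1:**
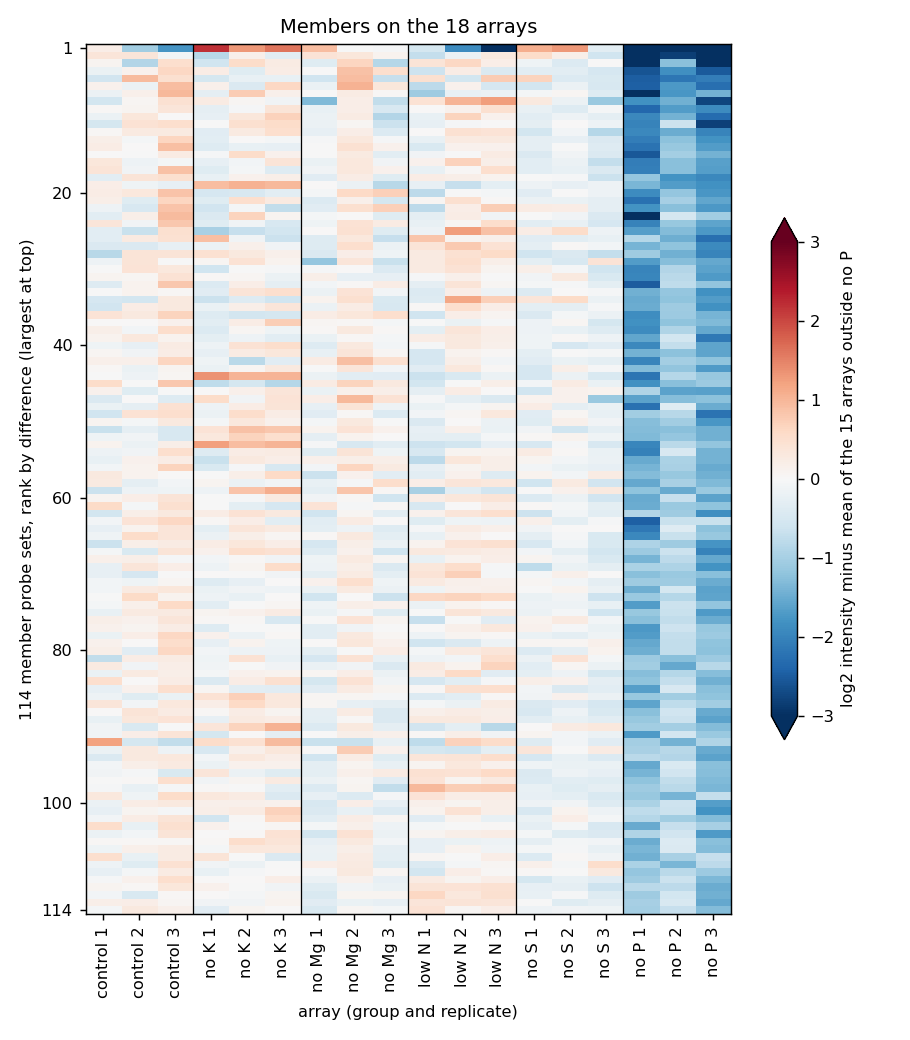
Log2 intensity of the 114 members (rows, largest difference at the top) on the 18 arrays (columns, 3 per group), each minus the row's mean over the 15 arrays outside no P, with colours limited to -3 and 3. The no P columns are the lowest in every row, as the rule requires, and the second no P array is the palest of the 3 (median over members of -0.98, against -1.49 and -1.50).

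The no P arrays were not alike. Array 2 was the highest of the 3 for 93 members, array 3 for 12 and array 1 for 9. The median over members of the log2 difference from the other 15 was -1.49 on array 1, -0.98 on array 2 and -1.50 on array 3. The members' spread within no P was also wide, with a median SD of 0.41 log2. It was 0.15 for the 21006 tested probe sets with a mean of 200 or more outside no P, called bright below. These share only that limit with the members and were not matched to the members' levels in no P.

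The rule was applied again without each no P array in turn, so that the array left out could be read as a measurement the choice had not used. Without array 3 the rule found 93 probe sets, and on array 3 89 of them (95.7%) lay below all 15 other arrays, where 15.7% of the 21006 bright probe sets did. Without array 1 it found 131, and on array 1 95 of them (72.5%) lay below all 15, against 18.2%. Without array 2 it found 293, and on array 2 138 of them (47.1%) lay below all 15, against 9.49%. The other 15 arrays had been used in the choice, so only the left-out array was unused. It lay below the mean of the 15 for 93 of 93 probe sets on array 3, 118 of 131 on array 1 and 273 of 293 on array 2, with median log2 differences of -1.43, -1.13 and -0.51. For single arrays the share of all bright probe sets below that mean is not given. The mean of the 3 no P arrays lay below that of the 15 for 52.4% of them. Most probe sets chosen without an array were lower on it than the mean of the 15, and array 2 showed this least. That mean was itself used in the choice. The number of members rests on array 2, since 114 became 293 without it.

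**Figure D2:**
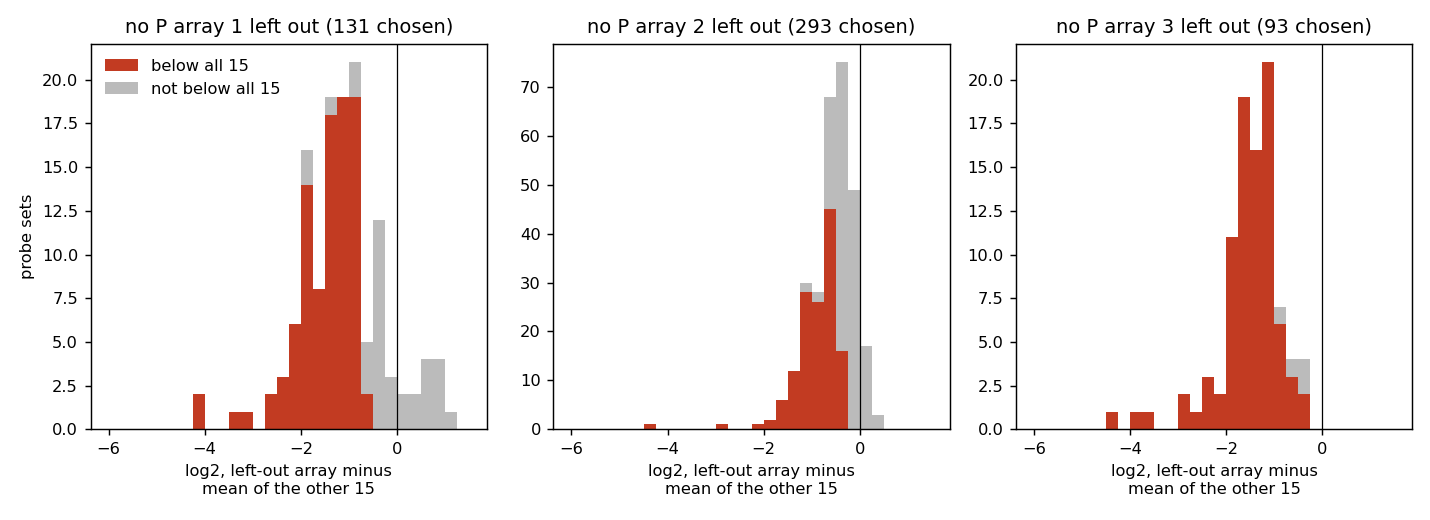
Probe sets chosen by the rule without 1 no P array, by the log2 difference of that left-out array from the mean of the 15 arrays outside no P (x axis), with the number of probe sets on the y axis (scales differ between panels). Red bars are probe sets on which the left-out array also lay below all 15 (95 of 131, 138 of 293 and 89 of 93), grey bars the rest.

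Applied to each other group in the same way, the rule found 84 probe sets lowest only in low N, 4 in no K, 1 in no S, and 0 each in no Mg and in the control. Phosphate lack and low nitrogen thus each had a set of this kind. The rule's limits decided much of the count. In all, 647 probe sets of this brightness had all 3 no P arrays below the other 15, of which 114 met the limit of 1.0 log2. A further 97 bright probe sets were lower by 1.0 log2 or more on average but overlapped with another group, and 31 of these overlapped with 1 array only. Low N arrays reached into the no P range for 55 of the 97, no Mg for 48, the control for 45, no S for 42 and no K for 41.

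Values just inside and outside each limit were close. Ta.15889.3.A1_a_at and TaAffx.24477.1.S1_at were members at -1.004 and -1.006 log2, while Ta.14344.1.S1_s_at and Ta.10574.1.S1_a_at fell short of the limit at -0.997 and -0.996. For brightness, Ta.254.1.S1_s_at and LOC542941 were members at means of 202 and 209, and LOC543176 and TaAffx.113660.1.S1_at were left out at 197 and 195. For separation, Ta.3193.1.S1_x_at was a member with no P at 2062 and the lowest other array at 2068, as was Ta.1896.1.S1_at at 1395 and 1404. TaAffx.86521.1.S1_at missed it at 112 against 111, and Ta.9396.1.S1_x_at at 614 against 613.

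The member with the largest difference, Ta.5549.1.S1_a_at, was also the one that varied most among the other groups. Its intensity was 17.6, 13.9 and 20.4 on the no P arrays. It was 336, 140 and 85.3 in the control, 1334, 714 and 890 in no K, and 548, 289 and 283 in no Mg. It was 202, 78.6 and 35.3 in low N and 621, 718 and 235 in no S. The no P values lay well below the array medians, and the fold of 17.0 against the other 15 is therefore uncertain. Low N array 3, at 35.3, also lay below its array's median of 60.3, so the separation of no P from low N is uncertain too. The 5 other groups spanned 11.5-fold between their mean log2 intensities. They differed beyond the spread of replicates in limma's moderated F-test, at adjusted p = 0.0215. That call was lost without no K array 3 (limma, adjusted p = 0.0519), low N array 2 (0.0569) or low N array 3 (0.0538), and with no intensity trend (0.0706). Its neighbour in the order of levels above no P was low N, at a mean of 105 ± 86.7 (SD, n = 3).

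On Ta.20922.2.S1_x_at the no P arrays stood at 13.4, 31.8 and 19.7, and the other 15 at a lowest of 125, a median of 248 and a highest of 330. All 3 no P values lay below the array medians of 69.2 to 70.0, so the distance of 3.93-fold between the highest no P array and the lowest of the others is uncertain. Ta.5388.1.S1_a_at stood at 23.4, 102 and 10.9 in no P and at 131, 254 and 378 (lowest, median, highest) elsewhere, and its no P arrays 1 and 3 lay below their medians, so its difference of -3.03 log2 is uncertain. A tested probe set of the same cluster, Ta.5388.2.S1_s_at, went the other way, at a mean of 125 in no P and 85.2 elsewhere (0.54 log2). Ta.5388.2.S1_a_at did not pass the filter on dim signals. Ta.16683.1.A1_at stood at 49.3, 60.9 and 64.7 in no P, against 169, 232 and 528 elsewhere. Its no P arrays all lay below their medians, while those of the control spread from 182 to 528.

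Ta.19473 was represented by both of its probe sets. Ta.19473.1.S1_x_at stood at 88.6, 149 and 94.0 in no P and at 348, 534 and 990 (lowest, median, highest) elsewhere, a difference of -2.32 log2. Ta.19473.1.S1_at stood at 65.7, 108 and 74.99 against 207, 320 and 735, a difference of -2.14 log2. On both probe sets the second no P array was the highest of the 3, and the lowest other array was clear of it. Ta.5426.2.A1_a_at was the brightest of the 8 members with 2 log2 or more. It stood at 251, 676 and 839 in no P and at 1077, 2237 and 4431 elsewhere, and here array 3, not array 2, was the highest of the no P arrays. TaAffx.84394.1.S1_at stood at 152, 197 and 79.5 in no P. Its low N arrays, at 721, 1083 and 1270, were the highest of any group on average, and its lowest other array was a no Mg array at 213. Among the groups outside no P it did not pass the F-test (adjusted p = 0.114).

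**Figure D3:**
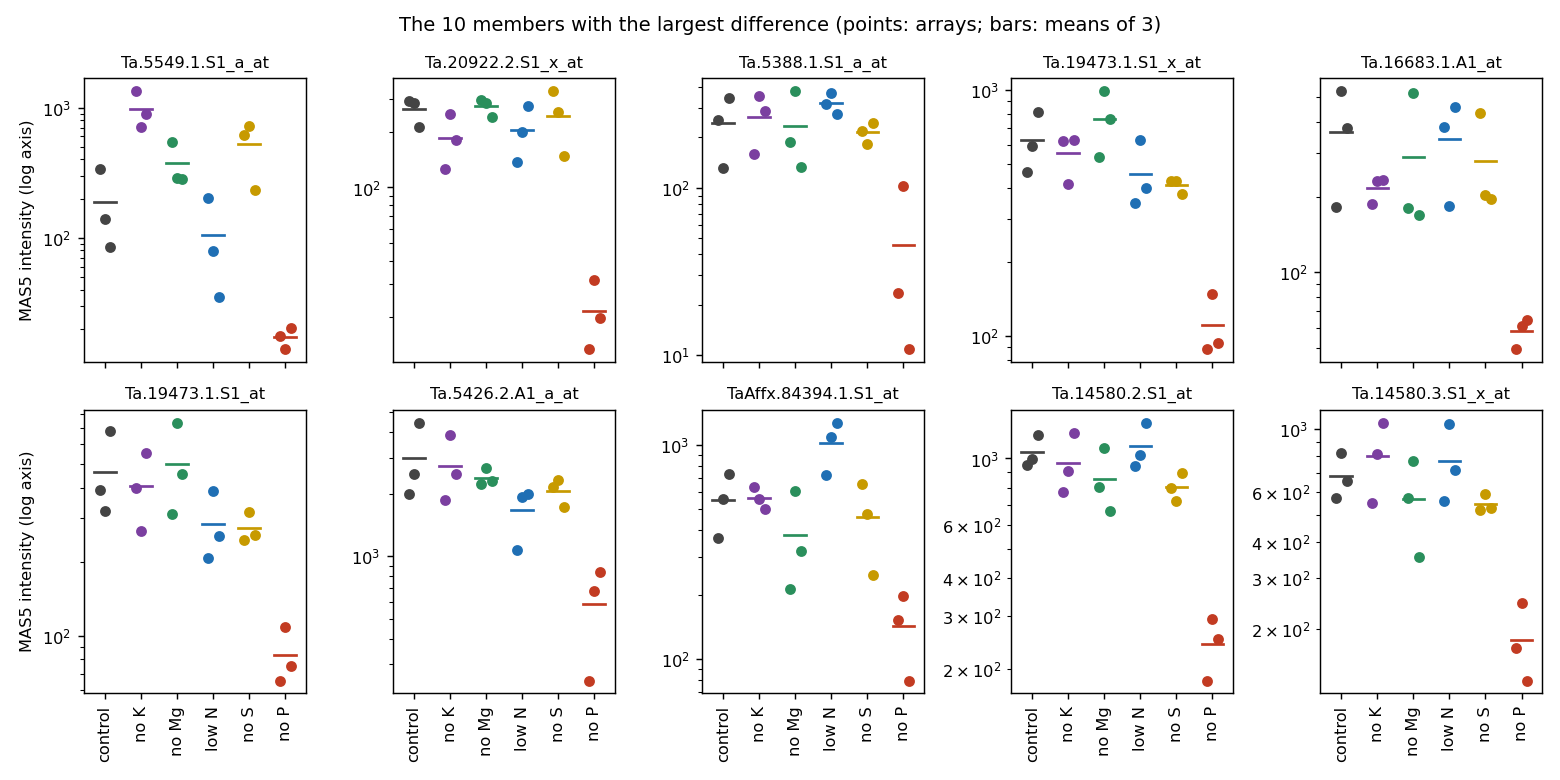
MAS5 intensity (log axis) of the 10 members with the largest difference, by group, with each point 1 array and each bar the mean of 3. Ta.5549.1.S1_a_at runs from 35.3 to 1334 across the 15 other arrays, while Ta.20922.2.S1_x_at lies between 125 and 330 on them and at 13.4 to 31.8 in no P.

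At the bright end, Ta.13153.1.S1_at had the highest level of all members. It stood at 3223, 4291 and 2641 in no P and at 4673, 6828 and 9560 (lowest, median, highest) elsewhere, a difference of -1.02 log2. Ta.2746.1.S1_x_at stood at 1822, 3712 and 2582 in no P against 4723, 5811 and 8770. TaAffx.59282.1.S1_x_at stood at 1851, 3546 and 1947 against 3973, 4661 and 6028. All 3 stood far above the array medians on every array, no P included. Ta.23377.1.S1_x_at showed a larger difference at a similar level, -1.60 log2, with 1126, 1863 and 1235 in no P against 2431, 3992 and 7536. Ta.3193.1.S1_at stood at 878, 3264 and 1481 in no P against 3453, 3757 and 5702, so on array 2 it was nearly at the level of the lowest other array. TaAffx.56780.1.S1_at stood at 1642, 2283 and 1381 in no P against 2620, 3817 and 5360. Ta.994.1.S1_x_at stood at 1180, 2170 and 1586 in no P against 3352, 4434 and 8333. Ta.1840.1.S1_a_at stood at 1548, 2295 and 1653 against 2575, 4971 and 5636. On each of these bright members array 2 was the highest of the no P arrays.

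Members came from 93 clusters, of which 79 held 1 member, 9 held 2, 3 held 3 and 2 held 4. The 35 members in the 14 clusters with 2 or more are not independent measurements, since probe sets of 1 cluster measure the same or closely related transcripts.

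All 4 probe sets of cluster Ta.14580 were members. Ta.14580.2.S1_at stood at 183, 293 and 251 in no P and at 668, 948 and 1315 (lowest, median, highest) elsewhere, which was -1.98 log2. The other members of this cluster, Ta.14580.3.S1_x_at, Ta.14580.2.S1_x_at and Ta.14580.1.S1_at, stood at -1.88, -1.81 and -1.45 log2. The means of the 5 other groups on Ta.14580.2.S1_at ran from 804 ± 87.3 in no S to 1096 ± 193 in low N. On Ta.14580.2.S1_x_at they ran from 402 ± 109 in no S to 682 ± 112 in low N, and the groups' mean log2 intensities spanned 1.72-fold. None of the 4 probe sets passed the F-test (adjusted p = 0.142 to 0.542).

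All 4 probe sets of cluster Ta.13327 were members as well. Ta.13327.1.S1_x_at stood at 976, 854 and 498 in no P and at 1168, 1952 and 2532 elsewhere, which was -1.26 log2, and the other 3 stood at -1.50, -1.25 and -1.10. In this cluster it was array 1, not array 2, that was the highest of the no P arrays. On Ta.13327.1.S1_x_at no S was the lowest of the other groups, at 1438 ± 267 (SD, n = 3), and low N the highest, at 2268 ± 294. These groups did not pass the F-test for any of the 4 (adjusted p = 0.101 to 0.158).

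Clusters Ta.19183, Ta.1840 and Ta.994 each had 3 members. All 3 probe sets of Ta.19183 were members. Ta.19183.2.S1_at stood at 1018, 1225 and 790 in no P against 2061, 2723 and 3893, and the others at -1.41 and -1.35 log2. Of the 4 probe sets of Ta.1840, Ta.1840.1.S1_at stood at 784, 1413 and 951 in no P against 2429, 3218 and 5135 (-1.70 log2). The probe set that was no member, Ta.1840.2.S1_x_at, stood at -0.98 log2. Of the 4 of Ta.994, Ta.994.1.S1_at stood at 988, 1731 and 1316 in no P against 3040, 3834 and 7619 (-1.65 log2). The probe set of this cluster outside the rule, Ta.994.3.S1_at, was separated but short of the limit, at -0.99 log2.

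Other probe sets of the members' clusters were read as a description. They are not an independent measure, since their clusters were chosen for low signal in no P. They were read on the same arrays and, for some endings, share part of the target sequence with members. A lower mean in no P is thus partly built in. All of these probe sets failed the rule by construction. There were 73 in all, in 32 clusters. Of these, 39 were tested and had a mean of 200 or more outside no P, in 20 clusters, with 13 of the 39 in the cluster of H2A-9. All 39 had a lower mean in no P than on the other 15 arrays, where 52.4% of the 21006 bright probe sets did, and 32 of the 39 were lower by 0.5 log2 or more, where 5.4% were. Their median was -0.66 log2, with a range of -2.92 to -0.11, against a median of -0.01 for all. All 3 no P arrays lay below the other 15 for 6 of the 39, against 3.08%. The 4 others of cluster Ta.5549, which gave the lower end of the range, stood at -1.84 to -2.92 log2. They overlapped with arrays of other groups and lay below the array medians on 1 or more no P arrays each, so these differences are uncertain. The limit of 200 left out dimmer probe sets of these clusters, which did not all have a lower mean in no P. Among the tested ones, Ta.5388.2.S1_s_at, Ta.9396.2.S1_at and Ta.6239.3.S1_at were higher in no P (0.54, 0.34 and 0.30 log2). Others were lower, such as Ta.9396.3.S1_at (-1.70 log2).

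**Figure D4:**
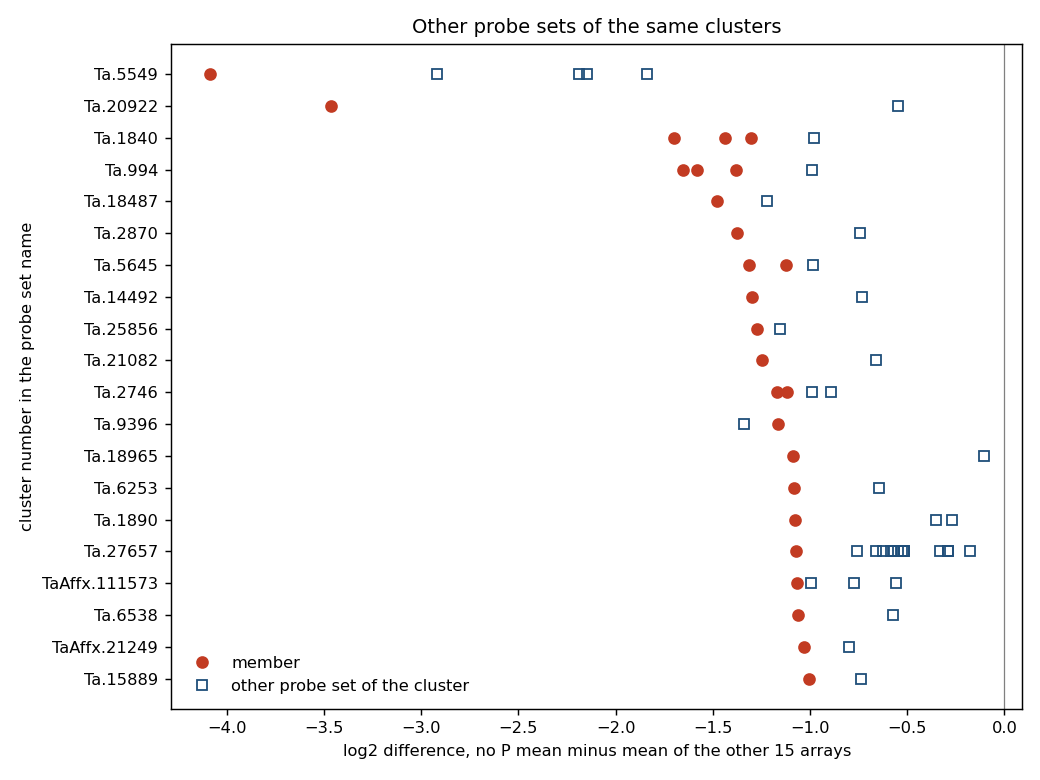
Log2 difference of the no P mean from the mean of the other 15 arrays (x axis) for the 20 clusters that hold a member (red circles) and at least 1 other tested probe set with a mean of 200 or more (open squares). All 39 squares lie left of 0, from -2.92 to -0.11.

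Of the 5 members with a gene, H2A-9 encodes an H2A histone, 1 of the core histones around which DNA is wound. Histone transcripts are made mostly by cells that are copying their DNA. The member Ta.27657.12.S1_at, matched to H2A-9 (LOC732714), stood at 705, 895 and 434 in no P and at 976, 1504 and 1673 (lowest, median, highest) elsewhere, a difference of -1.07 log2. It was 1495 ± 241 in the control, 1510 ± 6.76 in no K, 1502 ± 42.5 in low N, 1232 ± 309 in no Mg and 1186 ± 116 in no S (SD, n = 3). The other 5 probe sets of H2A-9 were brighter, and their differences of -0.52 to -0.76 log2 fell short of the rule. None of them was separated from all other arrays. On the brightest probe set of each of the 5 histone genes with a name, all 5 had a lower mean in no P, with a median of -0.44 log2, and 0 were members. Their summed intensity was 17320 to 27440 in no P and 25606 to 36782 elsewhere. The 6 tubulin genes also all had a lower mean, with a median of -0.18 log2 and 0 members, at summed intensities of 70038 to 87941 in no P and 78419 to 113129 elsewhere. Histone and tubulin transcripts were thus lower on average with overlapping ranges, and their part in the members' levels was not tested. Of 3 grain storage protein genes 0 had a lower mean, at summed intensities of 6729 to 7674 in no P and 6247 to 7698 elsewhere.

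The other named members are listed under running numbers, and no role is given for them. LOC606346 stood at 308, 250 and 226 in no P, at 916, 734 and 673 in the control, and at 1524, 1637 and 1579 in no K. It was 800, 712 and 447 in no Mg, 674, 494 and 647 in low N, and 720, 677 and 720 in no S. The no K arrays were thus the highest and the no P arrays, by the rule, the lowest, with the other 4 groups overlapping in between. LOC543416 stood at 64.4, 84.9 and 71.45 in no P against 92.4, 223 and 294 (lowest, median, highest) elsewhere. LOC543498 stood at 643, 579 and 649 in no P against 831, 1296 and 1952. Its 5 other groups were among the most even of all members, with mean log2 intensities within 1.14-fold. Its second probe set did not pass the filter on dim signals. LOC542941 stood at 93.25, 71.1 and 101 in no P against 111, 163 and 435, where 1 control array was the highest of all. Its mean outside no P was 209, just above the rule's limit of 200. Without that control array the mean lay below the limit, so LOC542941 met the rule only through that array.

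Differences among the other 5 groups were not themselves a criterion, but they were not free of the rule. A probe set far lower in another group could not be a member, and a group with high values helped it past the limits of 1.0 log2 and 200. The counts below, and their split into higher and lower, are therefore conditioned on the choice of members and are given as a description of them. The groups were compared with limma on the 15 arrays outside no P, over all 34255 probe sets, two-sided, with Benjamini-Hochberg adjustment, with calls made at an adjusted p under 0.05. The 4 comparisons with the control share its 3 arrays. The F-test for any difference among the 5 groups called 17 of the 114 members (14.9%), where it called 4.57% of all tested probe sets and 6.68% of those with a mean of 200 or more. At an unadjusted p under 0.05 it had 51 members, where 24.8% of all tested passed. For the other 97 a difference was not detected with these arrays, which does not show that the groups were alike. Leaving out control array 2 turned the 17 into 26. It was 9 without no K array 2 or 3, and 11 without low N array 1.

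No K gave the most calls against the control, with 8 members called (7.02%), where 0.257% of all tested and 0.395% of the bright probe sets were called. Of these 6 rose and 2 fell, where 0.175% and 0.0817% of all tested did. At an unadjusted p under 0.05 there were 25, against 9.9% of all tested. Both probe sets of cluster Ta.26144 rose. Ta.26144.1.A1_s_at went from 1273, 1151 and 1333 in the control to 3247, 2592 and 2587 in no K, a rise of 1.16 ± 0.13 log2 (SE; limma, adjusted p = 0.00358), and it stood at 280, 708.5 and 587 in no P. Ta.26144.1.A1_at rose by 1.02 ± 0.16 log2 (limma, adjusted p = 0.0170). No K thus lay above the control for this cluster, while the rule places no P below the control for every member.

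LOC606346, given above, rose by 1.04 ± 0.18 log2 in no K (limma, adjusted p = 0.0267). Ta.25630.2.S1_a_at went from 176, 233 and 200 in the control to 371, 520 and 492 in no K, a rise of 1.18 ± 0.18 log2 (limma, adjusted p = 0.0158), with 115, 117 and 104 in no P. The control was the lowest of the other groups for this probe set. The 2 members of cluster Ta.5645, Ta.5645.2.S1_x_at and Ta.5645.2.S1_a_at, each rose by 0.74 ± 0.13 log2 (limma, adjusted p = 0.0267 and 0.0265).

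Ta.28162.1.S1_at and Ta.994.3.S1_x_at fell in no K. The first went from 5552, 5189 and 6645 in the control to 3230, 2874 and 2929, a difference of -0.94 ± 0.17 log2 (limma, adjusted p = 0.0343), and stood at 1159, 1968 and 1610 in no P. The second went from 1106, 740 and 1319 to 444, 525 and 418, a difference of -1.16 ± 0.21 log2 (limma, adjusted p = 0.0385), and stood at 215, 317 and 353 in no P. For both, no K lay between the control and no P, as the rule requires of any member that falls in no K. Ta.5549.1.S1_a_at had the largest difference in no K, 2.57 ± 0.60 log2, and did not pass (limma, adjusted p = 0.116), although it did with the replicate number as a block.

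Of the 8 calls, only that of Ta.26144.1.A1_s_at was kept in all 15 fits that left out 1 array, and it was lost when the no P arrays were added to the fit (adjusted p = 0.0628), as were those of Ta.26144.1.A1_at, Ta.28162.1.S1_at and Ta.994.3.S1_x_at. Leaving out control array 2 left 3 of the 8 calls, and 1 was left without control array 3, no K array 2 or no K array 3.

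In low N 2 members were called and both rose (1.75%), where 0.0993% of all tested probe sets were called higher, 0.397% lower and 0.496% in either direction (0.757% of the bright ones). At an unadjusted p under 0.05 there were 23, against 12.1% of all tested. Ta.17389.1.S1_at went from 235, 206 and 235 in the control to 472, 405 and 411, a rise of 0.93 ± 0.18 log2 (limma, adjusted p = 0.0366), with 115, 137 and 93.6 in no P. Ta.12823.1.S1_s_at went from 881, 878 and 1003 to 1533, 2043 and 1599, a rise of 0.90 ± 0.18 log2 (limma, adjusted p = 0.0484), with 449, 511 and 312 in no P. All low N arrays lay above all control arrays for both. Ta.17389.1.S1_at met the rule only through its low N arrays, since without them its no P mean lay -0.87 log2 from the other 12 arrays, short of the limit. Neither call was kept when any 1 array of the control or of low N was left out.

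In no S 0 members were called by limma, where 0.0496% of all tested and 0.0762% of the bright ones were, and 35 of the 114 had an unadjusted p under 0.05, where 13.9% of all tested did. The members nevertheless leaned one way. The no S mean lay below the control mean for 100 of the 114, where it did for 43.7% of all tested and 51.6% of the bright probe sets. The median over members was -0.29 log2, against 0.04 over all tested and -0.01 over the bright ones. All 3 no S arrays lay below all 3 control arrays for 30 members (26.3%), where they did for 6.66% of all tested and 9.06% of the bright ones. They lay above them for 2 members, against 9.63% and 7.83%. No S was the lowest of the 5 other groups for 52 members (45.6%), against 23.4% of the bright probe sets. The single arrays of no S gave medians of -0.36 to -0.21 against the control mean. The control arrays were uneven for the members, with medians of -0.07, 0.06 and 0.30 relative to the mean of the 15 arrays. Without control array 2 limma called 8 members lower in no S, at -0.96 to -0.59 log2, among them Ta.994.1.S1_at, Ta.1840.1.S1_at and Ta.13153.1.S1_at, while it then called 3.15% of all tested probe sets.

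In no Mg 0 members were called by limma, where 0.0701% of all tested and 0.114% of the bright ones were, and 17 had an unadjusted p under 0.05, where 9.71% of all tested did. The no Mg mean lay below the control mean for 84 members, where it did for 42.6% of all tested and 50.7% of the bright ones. The median over members was -0.18 log2, against 0.04 and -0.003. All 3 no Mg arrays lay below the control for 6 members, where they did for 4.49% of all tested and 5.94% of the bright ones, and above it for 3, against 8.59% and 6.52%. The median moved with the arrays, from -0.02 without control array 3 to -0.29 without no Mg array 2. In no K the mean lay below the control for 65 members (57.0%), where it did for 53.3% of all tested and 53.7% of the bright ones. All no K arrays lay below it for 12 (10.5%), against 6.67% and 7.52%, and above it for 10 (8.77%), against 5.61% and 6.48%. In low N the mean lay below the control for 59 members (51.8%), against 43.7% and 44.5%. All low N arrays lay below it for 12 (10.5%), against 6.31% and 7.58%, and above it for 11 (9.65%), against 9.6% and 10.9%. The medians over members were -0.08 in no K and -0.02 log2 in low N, within the spread between single arrays.

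**Figure D5:**
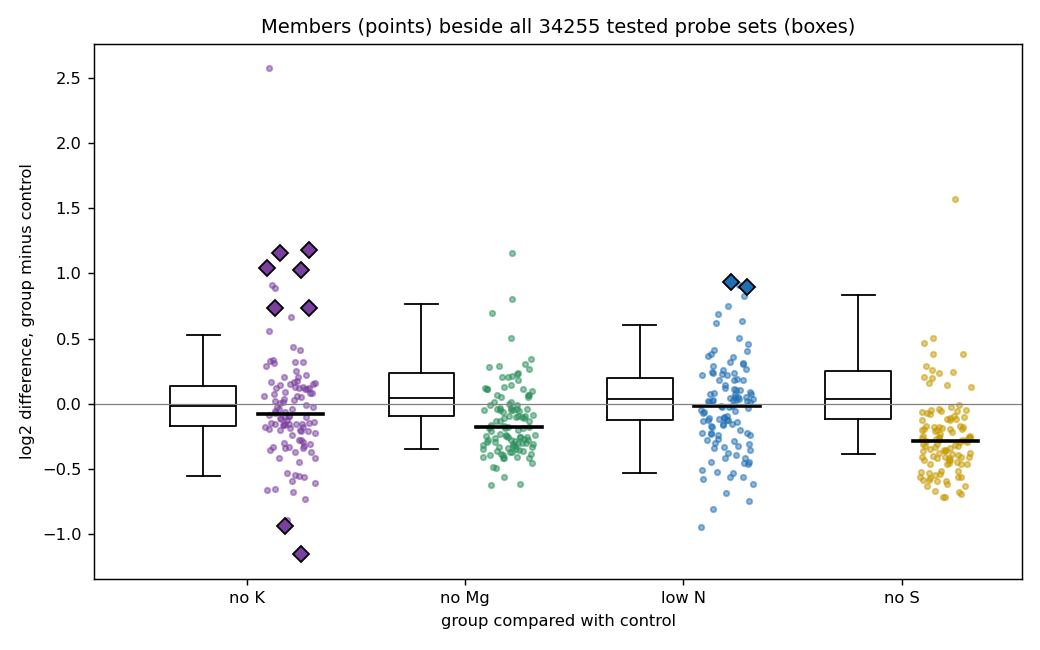
Log2 difference from the control in no K, no Mg, low N and no S for the 114 members (points, with a black bar at their median) beside all 34255 tested probe sets (boxes with the median and quartiles, whiskers at the 5th and 95th percentiles). Diamonds are members with a limma adjusted p under 0.05, 8 in no K and 2 in low N. The members' medians are -0.08, -0.18, -0.02 and -0.29.

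The members' levels outside no P were related to each other only in part. Over the 15 arrays, the correlation between members of different clusters had a median of 0.27 (quartiles 0.04 and 0.47, 6411 pairs), against 0.00 (quartiles -0.24 and 0.25) over all pairs of the 21006 bright probe sets. Within a cluster the median was 0.86 (30 pairs), where probe sets share transcripts. All pairs share the same 15 arrays and their scaling. The spread between the means of the 5 other groups had a median of 0.59 log2 over members, against 0.32 log2 for all bright probe sets. The most even member was Ta.3193.1.S1_x_at, whose 5 mean log2 intensities by group lay within 1.13-fold.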

How the data were processed

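Linear intensities, 1 for each probe set on each array, are what the authors deposited. Affymetrix Expression Console and MAS5 are named, without versions, in the submitters' processing notes. No scaling target or detection calls were used here. Every array's mean, with the highest and lowest 2% of values removed, was 500.1, so the deposited intensities had been scaled globally. The labels' protocols give 500 ng of RNA as the input for biotin labelling. Precision is limited by how few arrays there are.

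The log2 of each intensity was taken as it stood, and the 111 AFFX controls were left out. Testing took in the 34255 probe sets (56.0%) that reached their array's median on 3 or more of the 18 arrays. Group means were fitted to the 15 arrays outside no P with limma 3.58.1 in R 4.3.3 (lmFit, eBayes with an intensity trend, 10 residual and 4.66 prior degrees of freedom). All adjusted p-values are limma's, over all tested probe sets. The limma steps were also run on simulated arrays with independent normal noise, and the rule for members was not part of that run. Figures were drawn with matplotlib 3.10.9.

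The platform annotation gave 1 gene for 1273 probe sets and several for 0. The genes of all 5 named members matched the RefSeq table of IWGSC CS RefSeq v2.1, used for names only. The members and lists were chosen with earlier results of these data known. Probe sets were named by rule: all members with a gene, the 10 largest differences, the 10 brightest, those called against the control (in no K all 8, beyond the 4 the rule asked for), the clusters with most members (5, because 3 were tied) and those next to each limit.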

Additional observations from a re-analysis of the deposited data

How the results depend on the processing

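The number of members, 114, was 330 with a limit of 0.5 log2 and 28 with 1.5, and stayed within 1.5 times under quantile normalization (122, of which 113 shared), 75th-percentile centring (117, 110 shared) and a brightness limit of 100 or 400 (139 and 80). Leaving out 1 array gave 93 to 293. The 8 calls in no K were 4 with all 18 arrays in the fit, 1 with the 2 groups alone and 1 with no intensity trend, and 1 to 8 leaving out 1 array. The 2 calls in low N were 1 with all 18 arrays, 1 with the 2 groups alone, 1 after 75th-percentile centring, 0 after quantile normalization, 0 with no filter on dim probe sets, 0 with no intensity trend, and 0 to 2 leaving out 1 array. The F-test's 17 were 7 with no intensity trend and 9 to 26 leaving out 1 array. No Mg had 0 calls under every setting run, and no S had 0 to 8 leaving out 1 array and 0 under the other settings. The medians against the control ran, leaving out 1 array, from -0.17 to 0.03 in no K, -0.29 to -0.02 in no Mg, -0.12 to 0.06 in low N and -0.34 to -0.21 in no S. Where a count changed because arrays were left out or added, fewer or other arrays were fitted. Otherwise the cause was not tested.

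The replicate numbers did not pair the samples: deviations from the group means correlated at -0.10 to 0.13 over 30 same-numbered pairs, 2 of them over 0.1, and the same-numbered array correlated best in 18 of 60 cases. With the replicate block, 9 members were called in no K, 0 in no Mg, 2 in low N, 0 in no S and 24 by the F-test. In no K the block ended the call of Ta.994.3.S1_x_at and added those of Ta.5549.1.S1_a_at and Ta.23377.1.S1_x_at.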
